A study of Sus scrofa with 16 samples.

Results

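Homeobox genes encode transcription factors that bind DNA through a conserved domain, the homeodomain. HOX genes form the clusters HOXA, HOXB, HOXC and HOXD, in which the order of the genes along the chromosome follows their use along the body axis. A high group number marks genes of the rear of the body. In adipose tissue the set of HOX genes that is active is known to differ between depots of different body regions, and other homeobox factors act in mesenchymal stroma, muscle, epithelium or nerve.

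The members were the array probes that the scanner files name as a HOX gene of cluster A, B, C or D, or describe with the word homeobox. This choice used names and no measured value. It gave 120 of 43603 probes, which stand for 81 genes or transcripts. Of these, 88 probes (58 genes or transcripts) were well above background, by the scanner software's own mark, on at least 4 of the 16 arrays. HOX genes made up 17 of the 120 probes and 12 of the 88. The names are those of the array design, and 18 member probes are named only because a pig transcript cluster (TC followed by a number) partly resembles a homeobox protein of another species.

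The arrays held RNA from the subcutaneous fat of 16 pigs at 20 kg body weight, fed freely. They came from lines selected on residual feed intake (RFI), which is intake beyond what growth and maintenance predict: 8 pigs of the low-RFI and 8 of the high-RFI line, each on an array of its own. The replicates of a line are numbered 1 to 8, and the probe rule asks for a comparison of replicates 1 to 4 with 5 to 8. What the numbers stand for is not given, nor are the age and sex of the pigs. Every signal below is a log2 value in which 0 is the 75th percentile of the array.

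Between 68.7% and 80.3% of the spots of an array were well above background. All 10 adipocyte markers were measured, with a mean log2 signal per array between 5.94 and 6.60. The mean of 12 skeletal muscle markers was 5.98 in low-RFI pig 8, -0.51 in low-RFI pig 6 and -1.53 in high-RFI pig 7, and -2.96 to -2.20 in the other pigs. The mean of the skin and gland epithelium markers was 0.07, -1.10 and -1.83 in high-RFI pigs 6, 2 and 7, and -4.52 to -3.16 in the other pigs. The part of muscle or epithelium in the homeobox signals was not tested beyond leaving out these arrays. In whole tissue, fewer cells of a type and less RNA per cell cannot be told apart.

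The probes on which the HOX results turn are 60 bases long. They are shown 5′ to 3′ because several are short windows of genes with close relatives or carry a disputed name. Capitals in the first pair mark the bases that a probe of HOXA10 and a probe of HOXD10, genes of the same group in different clusters, have in common where they align.
HOXA10: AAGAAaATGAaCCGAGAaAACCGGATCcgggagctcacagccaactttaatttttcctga
HOXD10 probe 2: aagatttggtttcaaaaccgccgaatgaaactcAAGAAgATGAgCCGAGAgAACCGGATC
Of 27 aligned bases, 24 were identical (88.9%). The remaining probes of the results below have no such capitals.
HOXD10 probe 1: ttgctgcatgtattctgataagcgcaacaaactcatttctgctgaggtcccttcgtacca
HOXD10A: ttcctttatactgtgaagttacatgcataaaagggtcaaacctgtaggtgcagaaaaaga
HOXC4 probe 1: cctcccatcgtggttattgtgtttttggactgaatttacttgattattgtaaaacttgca
HOXC4 probe 2: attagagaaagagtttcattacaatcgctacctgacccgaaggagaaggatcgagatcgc
HOXD3 probe 1: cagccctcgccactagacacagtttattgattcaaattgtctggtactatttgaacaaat
The accession of the probe that the files call HOXD10A belongs to HOXA11 in RefSeq (Sscrofa11.1), where HOXA11 is the direct neighbour of HOXA10. Its name is therefore disputed, and the file's name is kept here. HOXD3 probe 1 has its name only through a partial resemblance (45%) of its transcript cluster. The second probe named HOXD3 carries a gene ID that RefSeq gives to HOXD1. The files give these probes no genome position.

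HOXA10 was on in some pigs and off in others, where on stands for a probe well above background. HOXA10 is a rear-body gene of the HOXA cluster, and its probe was well above background in 10 of 16 pigs. In low-RFI pigs 1 to 8 the log2 signal was -5.76, -3.07, -6.67, -2.42, -8.15, -2.62, -7.87 and -1.77. In high-RFI pigs 1 to 8 it was -2.62, -2.13, -3.50, -2.99, -7.71, -2.52, -7.25 and -6.63. The pigs fell apart into 9 at -3.50 or higher and 7 at -5.76 or lower, with a gap of 2.25 that took up 35.3% of the whole range. Low-RFI pig 1, the highest of the 7, was still well above background. Among all 33513 probes with a value on every array, 1431 (4.27%) split into 2 clusters of at least 4 arrays across a gap of at least 25% of their range, and 35 of these had a gap of at least 2.

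HOXD10A followed the same pigs. Its probe was well above background in 13 pigs, all except low-RFI 5, low-RFI 7 and high-RFI 5. In low-RFI pigs 1 to 8 the log2 signal was -2.72, -0.27, -3.77, 0.76, -7.88, 0.56, -8.24 and 1.72. In high-RFI pigs 1 to 8 it was 0.36, 1.67, -0.77, 0.89, -5.80, 0.99, -4.70 and -3.88. The 9 pigs with the higher HOXA10 signal were also the 9 with the higher HOXD10A signal, the lowest of them at -0.77 and the highest of the other 7 at -2.72. Low-RFI pig 8, which had the most muscle signal, also had the highest HOXA10 and HOXD10A signals. The other muscle-rich or epithelium-rich pigs lay on both sides, with low-RFI pig 6 and high-RFI pigs 2 and 6 among the 9 and high-RFI pig 7 among the 7. Before log2, the processed signal of HOXD10A ran from 1.6 in low-RFI pig 7 to 1603 in low-RFI pig 8.

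**Figure D1:**
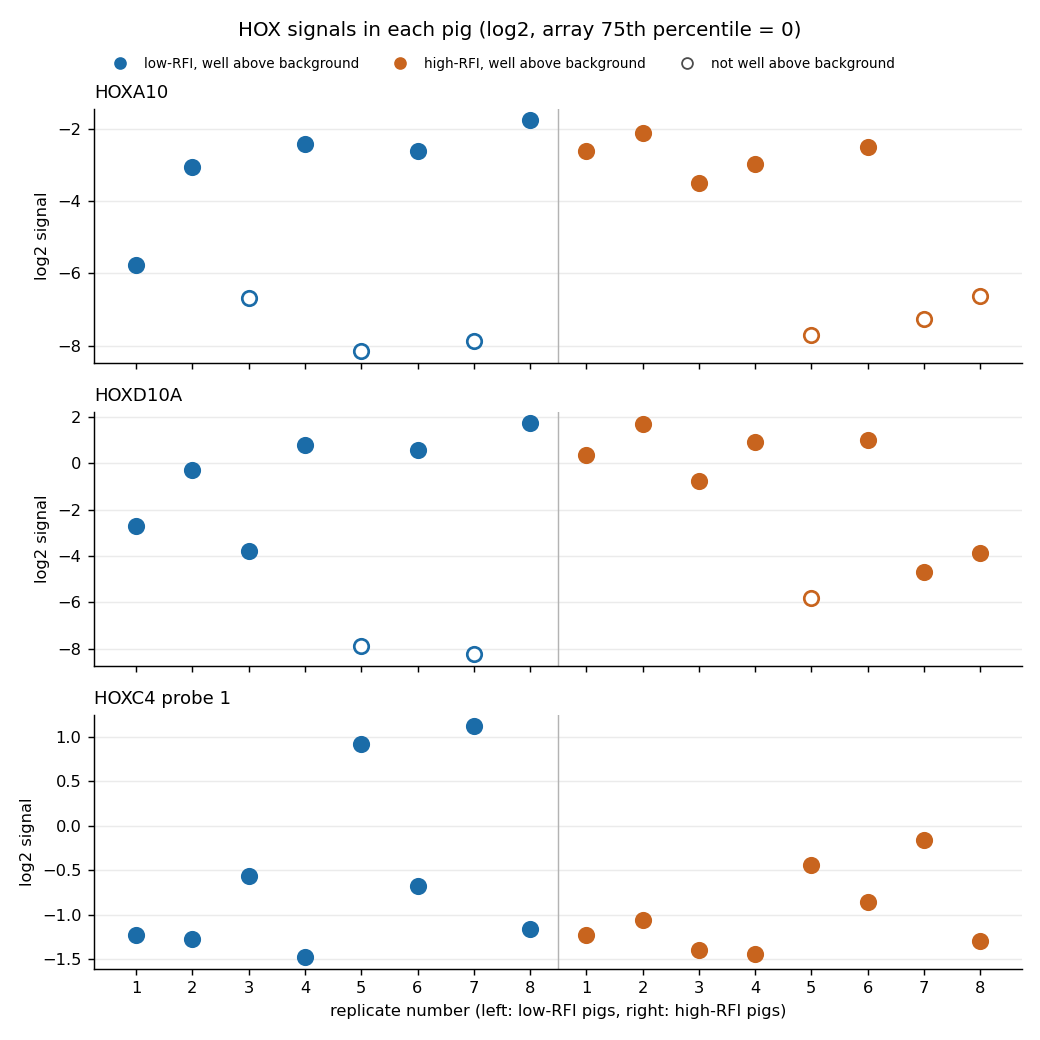
Log2 signal (array 75th percentile = 0) of HOXA10, HOXD10A and HOXC4 probe 1 in each pig; each point is 1 array, filled where the probe is well above background and open where it is not. The same 9 pigs hold the 9 highest points for HOXA10 (-3.50 or higher) and for HOXD10A (-0.77 or higher), and low-RFI pigs 5 and 7 hold the highest HOXC4 points (0.92 and 1.12).

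Within the 9 pigs the pair also rose and fell together. Pearson r between HOXA10 and HOXD10A was 0.905 over the 9 pigs, given as a description since both come from the same arrays. Over the 7 pigs r was 0.930, but there HOXA10 was not well above background in 6 and HOXD10A in 3, so that value rests largely on signals at background. Only 7 of the 33513 probes had the same 9 pigs at the top, and 3 of these had an SD of at least 1 over the pigs: HOXD10A (3.38), HOXA10 (2.41) and a probe without a name in the files (1.77), which was picked after its values were seen. The unnamed probe ran from -4.60 to -2.68 in the 9 pigs and from -7.82 to -6.27 in the other 7, and it was well above background in 9 pigs. Its sequence is shown because no gene could be given for it.
unnamed probe: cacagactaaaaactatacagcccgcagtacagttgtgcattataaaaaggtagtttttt
The other probes of the 7 were ZFAND5, ACP6, BTBD1 and a second unnamed probe, with SDs of 0.31, 0.21, 0.16 and 0.51.

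The spread of these HOX genes stood at the edge of the array. HOXD10A ranked 45th in SD among 34041 probes, and 0.482% of all probes had an SD at least as large as that of HOXA10. Members above the 95th percentile of SD for probes of like signal were HOXD10A, HOXA10, TC460146 and HOXC4 probe 1. Such a percentile leaves a share of all probes above it by definition, and these members were not a larger share of the 88. TC460146 (SD 1.04, percentile at 0.86) and HOXC4 probe 1 (SD 0.80, percentile at 0.76) were only just above it. TC460146 resembles an Emx protein over 5% of its length. The member probes as a whole did not share the spread of HOXD10A and HOXA10: 6 of 88 (6.82%) had an SD of at least 1, against 5.21% of all probes, and the median SD was 0.40 against 0.32.

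**Figure D2:**
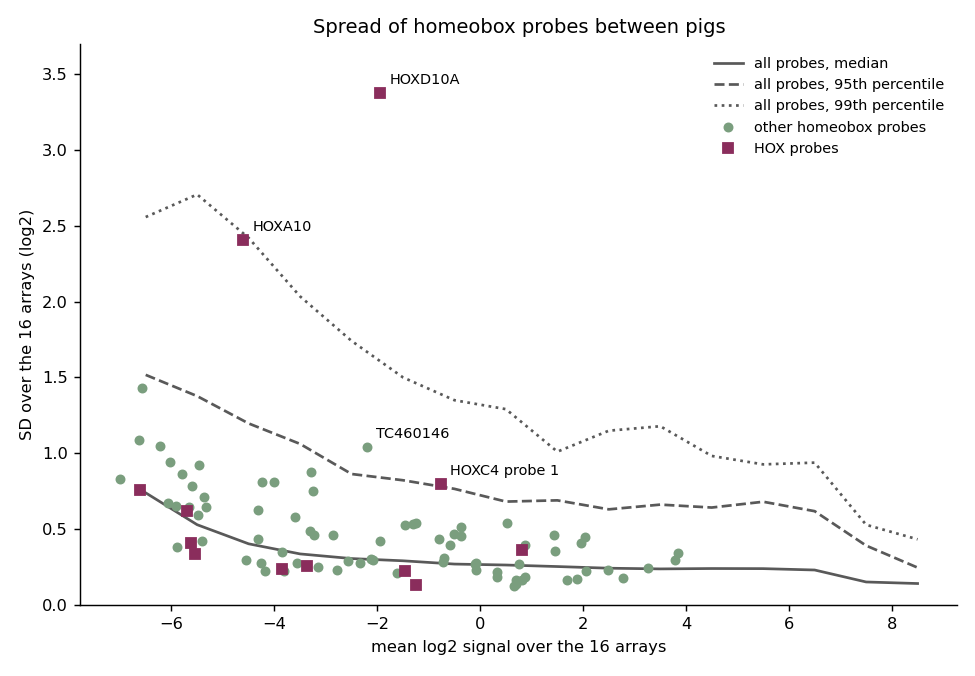
SD over the 16 arrays (log2) against the mean log2 signal of each member probe, squares for HOX probes and circles for other homeobox probes; lines give the median, 95th and 99th percentiles of all probes of like signal. HOXD10A (SD 3.38) and HOXA10 (2.41) stand far above the other members, of which only TC460146 and HOXC4 probe 1 lie above the 95th percentile line.

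HOXA11, HOXA13, HOXD12 and HOXD13, also genes of the rear of the body, were seen in at most 2 pigs by any probe of these names. HOXA13, at the end of the HOXA cluster, was well above background in low-RFI pig 7 (-3.24) and high-RFI pig 4 (-5.69) and was between -8.62 and -7.27 in the others. HOXA11 has 2 probes in the files. The first was well above background in high-RFI pigs 4 and 6 and the second in high-RFI pigs 1 and 4, and neither was on in the other pigs with a high signal of HOXD10A, the probe whose accession names the same gene. HOXD12 and HOXD13, the last genes of the HOXD cluster, were not well above background in any pig. Their highest signals were -7.66 and -6.16.

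Members of the HOXB cluster differed little between pigs. The HOXB13 probe was well above background in 9 pigs, with -6.29, -5.68 and -4.96 as its lowest, median and highest signals. TC502980, which resembles chicken Hox-B13 over 7% of its length, was measured in all 16 pigs between -3.87 and -2.89 (median -3.35). TC450162, which resembles a coelacanth B5 protein over 7%, was measured in all 16 pigs between -1.82 and -1.03 (median -1.45). None of the 3 had the split of HOXA10, their SDs being 0.41, 0.25 and 0.22. TC512617, which resembles a fish Hox-A11 over 5% of its length, was well above background in 5 pigs and ran from -7.87 to -5.65 (median -6.45).

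HOXC4, a gene of the front end of the HOXC cluster, was measured in all 16 pigs by both of its probes. Probe 1 had a lowest, median and highest signal of -1.48, -1.11 and 1.12, and low-RFI pigs 5 and 7, at 0.92 and 1.12, stood 1.08 above the next pig. These pigs had the lowest HOXA10 and HOXD10A signals. Probe 2 ran from -4.24 to -3.40 (median -3.87) and did not set these pigs apart, at -3.54 and -3.73. The correlation between the probes was 0.51 over the 16 pigs.

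In the HOXD cluster, HOXD3 probe 1 was measured in all 16 pigs between 0.06 and 1.44 (median 0.84). HOXD3 probe 2 ran from -1.46 to -0.98 (median -1.25), and its correlation with probe 1 was 0.07. HOXD10 probe 1 was well above background in 14 pigs, with a signal between -6.17 and -5.13 (median -5.42). HOXD10 probe 2 was well above background in 11 pigs and ran from -6.80 to -4.76 (median -5.60), with a correlation of -0.28 between the probes. Neither HOXD10 probe had the split of the HOXA10 probe, although probe 2 shares 24 aligned bases with it.

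Covariation between the clusters was tested on the kept probe with the highest mean signal in each: HOXA10, TC450162, HOXC4 probe 1 and HOXD3 probe 1. Of these, TC450162 and HOXD3 probe 1 are assigned to their clusters only by partial resemblance of a transcript cluster. Because HOXA10 put the pigs into 2 clusters, its relations were computed within each and not over all pigs, which made 9 relations. HOXC4 probe 1 and HOXD3 probe 1 rose together over the 16 pigs in rank, with Spearman rho = 0.765 (permutation p = 0.00076, adjusted 0.00684), while Pearson r = 0.565 did not pass (permutation p = 0.0231, adjusted 0.104). Without the 2 pigs farthest from the median of HOXC4, r was 0.806. It was 0.516 in the low-RFI and 0.886 in the high-RFI line, 0.699 in replicates 1 to 4 and 0.294 in replicates 5 to 8, and 0.478 once the means of line and replicate set were taken out. The relation depended on the probe of either gene: with HOXC4 probe 2 r was 0.249 (adjusted permutation p = 0.529), with HOXD3 probe 2, as in the setting that uses only probes with a direct HOX name, r was -0.027, and with the mean of the kept genes of each cluster, which brings in HOXD10A, it was -0.783.

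In the 7 pigs of low HOXA10, of which only low-RFI pig 1 had HOXA10 well above background, the correlation of HOXA10 with HOXC4 probe 1 was negative and did not pass (r = -0.853, exact permutation p = 0.0151, adjusted 0.104; rho = -0.893, adjusted 0.0554). Without the 2 pigs farthest from the median r was -0.786. In the 9 pigs of high HOXA10 r was 0.335 (exact permutation p = 0.379). With HOXD10A taken as the HOXA probe, where its accession puts it, r in the 7 pigs was -0.941 and passed (adjusted exact permutation p = 0.041), a setting added after the data were seen. HOXD10A was well above background in 4 of these 7 pigs, and the others give its signal at background. In the 9 pigs that r was 0.290. HOXC4 probe 2 gave -0.244 with HOXD10A in the 7 pigs.

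The remaining relations did not pass. HOXA10 with TC450162 gave r = -0.065 in the 9 pigs and 0.289 in the 7, and HOXA10 with HOXD3 probe 1 gave 0.408 and -0.573. TC450162 gave r = -0.112 with HOXC4 probe 1 (permutation p = 0.681) and 0.312 with HOXD3 probe 1 (permutation p = 0.241) over the 16 pigs. Of 29 pairs of HOX genes from different clusters, 5 had an r of at least 0.5 in size over the 16 pigs. Here HOXD10A was counted in HOXD by its name in the files. By its accession it would share the cluster of HOXA10, and their pair would not be one between clusters. By name the highest were HOXD10A with HOXA10, HOXD10 probe 1 with TC512617 (0.60) and HOXD3 probe 1 with HOXC4 probe 1. The lowest were HOXC4 probe 1 with HOXD10A (-0.815), HOXC4 probe 1 with HOXA10 and HOXD3 probe 1 with HOXA10. Over all 1653 pairs of member genes the median r was 0.04, and 10.71% had an r of at least 0.5 in size, against 11.21% of all probe pairs.

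**Figure D3:**
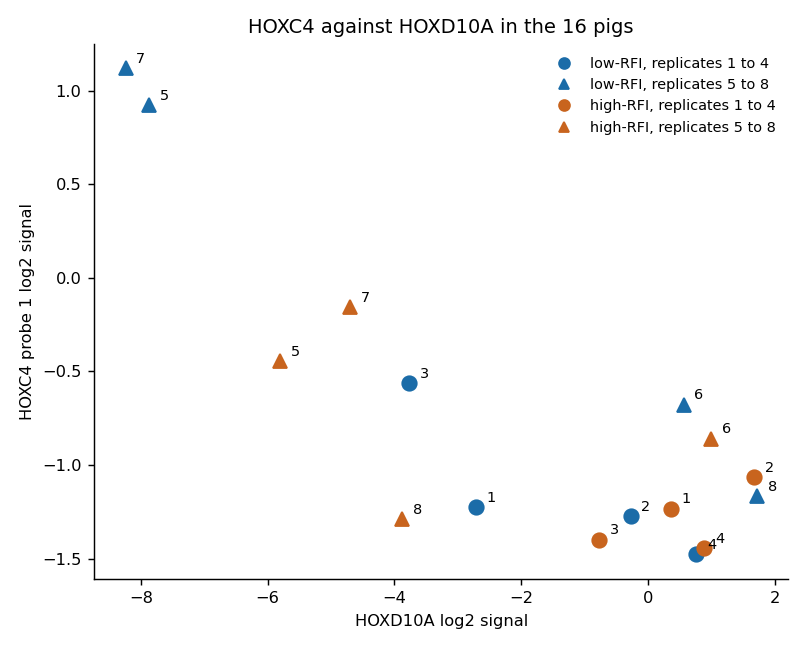
HOXC4 probe 1 against HOXD10A, both as log2 signal (array 75th percentile = 0), 1 point per pig with its replicate number; colour gives the line and shape the replicate set. The 7 pigs on the left, with HOXD10A at -2.72 or lower, fall from low-RFI pigs 7 and 5 at the top left (r = -0.941, with HOXD10A not well above background in 3 of them), and the 9 pigs on the right show no such course (r = 0.290).

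No HOX gene passed the test between the lines. Of the 88 member probes 0 passed in limma at an adjusted p under 0.05, where 0.0% of all 34041 probes were called, and 3 (3.41%) had an unadjusted p under 0.05, against 3.6% of all probes. HOXA10 averaged -4.79 ± 2.61 in the low-RFI and -4.42 ± 2.35 in the high-RFI line (SD, n = 8 each). The log2 difference, low-RFI minus high-RFI as in all that follow, was -0.37 (SE 1.15) with a 95% interval from -2.81 to 2.06. HOXA10 was well above background in 5 pigs of each line, and HOXD10A, with a difference of -1.08 (SE 1.60), in 6 low-RFI and 7 high-RFI pigs. Within slides 1 to 4, which each hold 2 pigs of each line, the HOXA10 difference was -2.91, -2.03, 0.47 and 2.97. HOXC4 probe 1 differed by 0.44 (SE 0.37) and TC512617 by -0.31 (SE 0.36). HOXB13 differed by -0.13 (SE 0.20), HOXD10 probe 1 by -0.04 (SE 0.17), HOXD3 probe 1 by -0.01 (SE 0.18) and TC502980 by -0.01 (SE 0.13). The limma adjusted p was 0.9998 for each of them.

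Among the other members the line difference with the smallest p was that of TC485416, which resembles the intestine-specific homeobox protein over 11% of its length. It averaged -2.68 ± 0.53 in the low-RFI and -3.88 ± 0.74 in the high-RFI line (SD, n = 8 each). The difference was 1.20 (SE 0.30, limma adjusted p = 0.9998). All 8 low-RFI pigs lay above the high-RFI mean, and the groups overlapped between -3.43 and -3.17. PBX3, a cofactor that binds DNA beside HOX proteins, had a difference of 0.26 (SE 0.13) by probe 1 and of 0.39 (SE 0.11) by probe 2, and all 8 low-RFI pigs lay above the high-RFI mean of probe 2. None of these passed.

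The next in order of p were given by smaller or more variable differences, with a limma adjusted p of 0.9998 for each. LHX8, a LIM homeobox factor of the developing brain, differed by 1.17 (SE 0.63). TC460146 differed by -0.83 (SE 0.46) and LHX2, a LIM factor of brain and hair follicle, by -0.77 (SE 0.47). TSHZ2, a zinc finger factor of the teashirt family, differed by 0.36 (SE 0.20) and LMX1A, a LIM factor of dopamine neurons, by 0.64 (SE 0.38). TC450162 differed by -0.19 (SE 0.11). LHX8 was well above background in 5 low-RFI pigs and 1 high-RFI pig (Fisher's exact test p = 0.119). Over the 24 member probes seen on 4 to 15 arrays, 0 had a Fisher's exact p under 0.05 between the lines, against 0.537% of 5958 such probes, and 0.0% of them were called after adjustment.

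**Figure D4:**
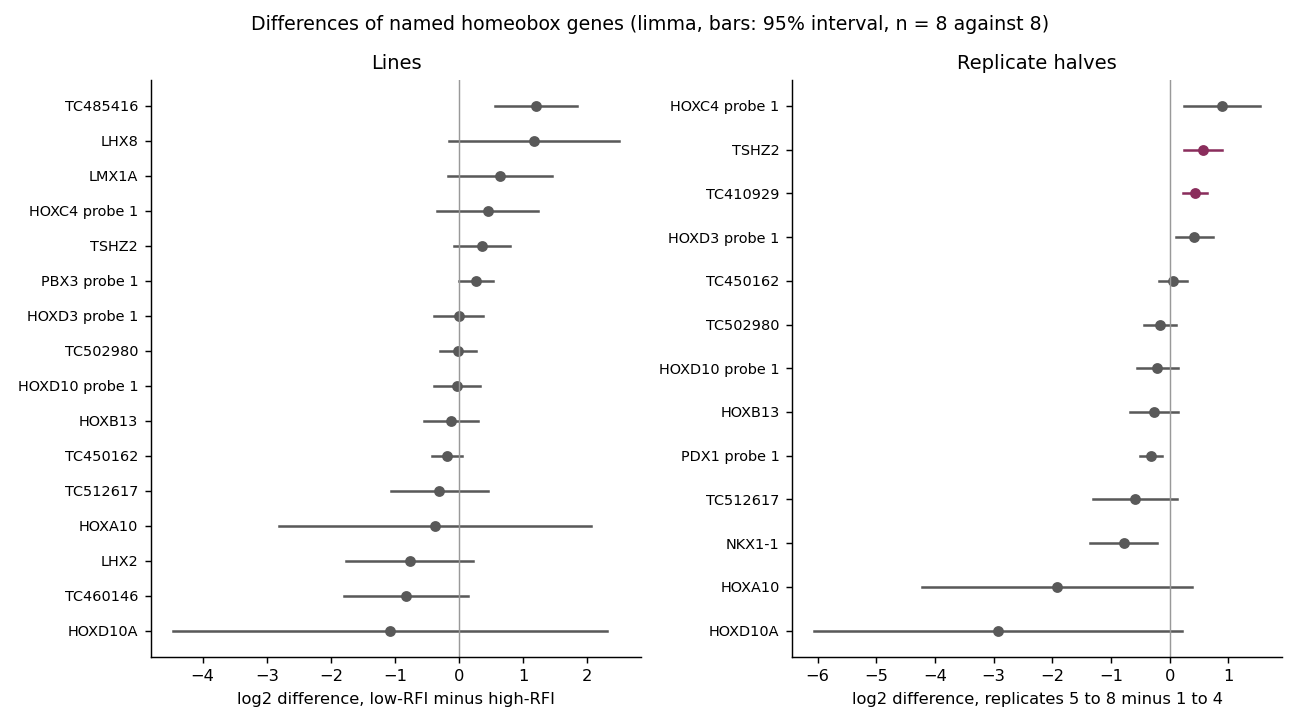
Log2 differences of the reported members with their 95% limma intervals, low-RFI minus high-RFI on the left and replicates 5 to 8 minus 1 to 4 on the right (n = 8 against 8 each); coloured points passed at an adjusted p under 0.05. No member passed between the lines, and TC410929 (0.44) and TSHZ2 (0.57) passed between the replicate sets.

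Replicates 5 to 8 differed from 1 to 4 in a few members. With line as a term and differences taken as replicates 5 to 8 minus 1 to 4, 2 of 88 members passed in limma, both higher in replicates 5 to 8, against 4.49% of all probes called and 1.63% called higher. At an unadjusted p under 0.05 there were 13 members (14.8%, 9 higher and 4 lower), against 22.7% of all probes. Over both directions together, both shares were below those of the array. For higher signal alone neither was, with 2 of 88 against 1.63%, and 9 of 88 against 2963 of 34041 probes.

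TC410929, which resembles a plant BEL1 homeobox protein over 4% of its length, was -0.95 ± 0.17 in replicates 1 to 4 and -0.51 ± 0.19 in replicates 5 to 8 (SD, n = 8 each). The difference was 0.44 (SE 0.10, limma adjusted p = 0.0264), and all 8 pigs of replicates 5 to 8 lay above the mean of the others, with the sets overlapping only between -0.76 and -0.75. TSHZ2 was -0.65 ± 0.44 in replicates 1 to 4 and -0.08 ± 0.25 in replicates 5 to 8 (SD, n = 8 each), a difference of 0.57 (SE 0.15, limma adjusted p = 0.0476), with the sets overlapping between -0.52 and 0.13. The TC410929 call was lost without high-RFI pig 4 (adjusted p = 0.0563) or 8 (adjusted p = 0.0516), without the 3 arrays of most muscle signal (adjusted p = 0.0629) and without the 3 of most epithelial signal (0.0934). With normexp background correction the TC410929 difference was 0.32 (limma adjusted p = 0.401). The TSHZ2 call held in 4 of 16 fits that left out 1 pig, with an adjusted p between 0.0241 and 0.0934 over all 16. It was also lost with slide as a block (limma adjusted p = 0.0612), quantile normalisation (0.0506), no filter (0.069) and normexp (0.211), and without the muscle-rich (0.110) or epithelium-rich (0.196) arrays.

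The other members with a small p between the replicate sets did not pass. PDX1 probe 1, a factor of pancreas development, differed by -0.32 (SE 0.09, limma adjusted p = 0.056) and NKX1-1 by -0.79 (SE 0.27, limma adjusted p = 0.100). PDX1 probe 2 was well above background in 0 pigs and had an r of -0.12 with probe 1, so the PDX1 difference rests on probe 1 alone. HOXC4 probe 1 was -1.21 ± 0.29 in replicates 1 to 4 and -0.32 ± 0.90 in replicates 5 to 8 (SD, n = 8 each), a difference of 0.89 (SE 0.31, limma adjusted p = 0.0997) that low-RFI pigs 5 and 7 lead. HOXD3 probe 1 differed by 0.42 (SE 0.15, limma adjusted p = 0.112), with all 8 pigs of replicates 5 to 8 above the mean of the others. Without low-RFI pig 3 it passed (limma adjusted p = 0.0158), as did PDX1 probe 1 (limma adjusted p = 0.0474). In that fit 4673 of all 34041 probes passed, against 1527 in the main fit. HOXA10 was -3.64 ± 1.66 in replicates 1 to 4 and -5.56 ± 2.75 in replicates 5 to 8 (SD, n = 8 each), a difference of -1.92 (SE 1.08, limma adjusted p = 0.308). HOXD10A differed by -2.92 (SE 1.47, limma adjusted p = 0.253).

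HOXA10 and HOXD10A were on in more pigs of replicates 1 to 4, without passing a test. HOXA10 was well above background in 7 of 8 pigs of replicates 1 to 4 and 3 of 8 of replicates 5 to 8 (Fisher's exact test p = 0.119), and HOXD10A in 8 and 5 (exact p = 0.200). NKX1-1 was on in 8 against 3 pigs (exact p = 0.0256) and LHX2 in 6 against 1 (exact p = 0.0406), and these were the 2 members of 24 at an unadjusted p under 0.05, against 3.29% of 5958 probes. After adjustment 0.0% of the probes passed. TC512617 differed between the sets by -0.59 (SE 0.34), HOXB13 by -0.28 (SE 0.19), HOXD10 probe 1 by -0.21 (SE 0.16), TC502980 by -0.17 (SE 0.13) and TC450162 by 0.05 (SE 0.11).

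The line difference was unequal between the replicate sets for no member after adjustment (0 of 88 in limma, with 0.0% of all probes called), and 3 members had an unadjusted p under 0.05, all negative, against 6.66% of all probes. LMX1A showed the smallest p: it was -5.20 ± 0.48 in low-RFI and -6.86 ± 0.91 in high-RFI pigs of replicates 1 to 4, and -5.76 ± 0.55 and -5.37 ± 0.29 in replicates 5 to 8 (SD, n = 4 each). The line difference was thus lower by 2.07 (SE 0.56, limma adjusted p = 0.725) in replicates 5 to 8. TSHZ2 had an interaction of -0.62 (SE 0.27), HOPX probe 1 of -0.98 (SE 0.44), PRRX2 probe 1 of -0.81 (SE 0.39) and LHX8 of -2.24 (SE 1.13), none past the threshold. Within replicates 1 to 4 alone, 0 members passed in limma and 11 (12.5%) had an unadjusted p under 0.05, 10 of them higher in low-RFI pigs, against 6.05% of all probes. Within replicates 5 to 8, 0 passed and 3 had an unadjusted p under 0.05, against 5.75%. In both sets 0.0% of all probes were called.

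The 11 members within replicates 1 to 4 came from 7 genes. HOPX, a small homeodomain-only protein that does not bind DNA, supplied 4 of them, and its 5 probes were correlated at 0.87 to 0.98 over the pigs. The HOPX probe 1 signal was 0.81 ± 0.70 in low-RFI and -0.03 ± 0.16 in high-RFI pigs of replicates 1 to 4 (SD, n = 4 each). PBX3 supplied both of its probes, with differences of 0.57 (SE 0.12) by probe 2 and 0.44 (SE 0.15) by probe 1. LMX1A differed by 1.67 (SE 0.40), TC485416 by 1.56 (SE 0.37), TSHZ2 by 0.67 (SE 0.19) and LHX8 by 2.29 (SE 0.80), and LHX2 by -1.53 (SE 0.64). The smallest limma adjusted p of these was 0.349.

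Outside HOX, several developmental factors of brain, face, bone and muscle were on in only part of the pigs. How often a probe was on differed between slides for some members. On slides 1, 2, 3 and 4, each with 4 pigs, SATB1 probe 4 was on in 4, 1, 4 and 1. LBX1 was on in 4, 1, 3 and 3, BARHL1 in 4, 2, 3 and 1 and PROX1 probe 3 in 1, 1, 4 and 0. Others differed little, such as LMX1A with 3, 3, 4 and 3 and DBX2 with 4, 3, 4 and 4. The array with the fewest spots well above background (68.7%) was that of high-RFI pig 5 on slide 2. The array with the most (80.3%) was that of high-RFI pig 4 on slide 3. HOXA10 was on in 3, 2, 2 and 3 pigs and HOXD10A in 3, 2, 4 and 4. The part of slide in these patterns was not tested. Of the 120 member probes, 64 were on in all 16 pigs (53.3%, against 64.5% of all spots), 24 in 4 to 15 pigs (20%, against 13.7%), 18 in 1 to 3 and 14 in none. DLX5, a factor of bone and face, was on in 10 pigs and ran from -6.15 to -4.28. BARHL1 was on in 10 pigs (-8.07 to -3.48), LBX1, a factor of muscle precursors, in 11 (-7.03 to -5.45) and NKX1-1 in 11 (-7.57 to -5.02). NKX1-1 is assigned to NKX1-2 in RefSeq by its gene ID. LHX2 was on in 7 pigs (-8.60 to -4.92) and LHX8 in 6 (-8.87 to -3.79). POU3F2, a neural POU factor, was on in 5 (-8.41 to -4.76) and CUX2 in 4 (-8.44 to -5.67). SATB1 was on in 16 pigs by probes 1, 2 and 3, in 13 by probe 5 and in 10 by probe 4 (-6.13 to -4.47). PROX1, a factor of lymphatic vessels, was on in 16 pigs by probe 1, in 11 by probe 2 (-6.60 to -4.03) and in 6 by probe 3 (-7.77 to -4.47).

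**Figure D5:**
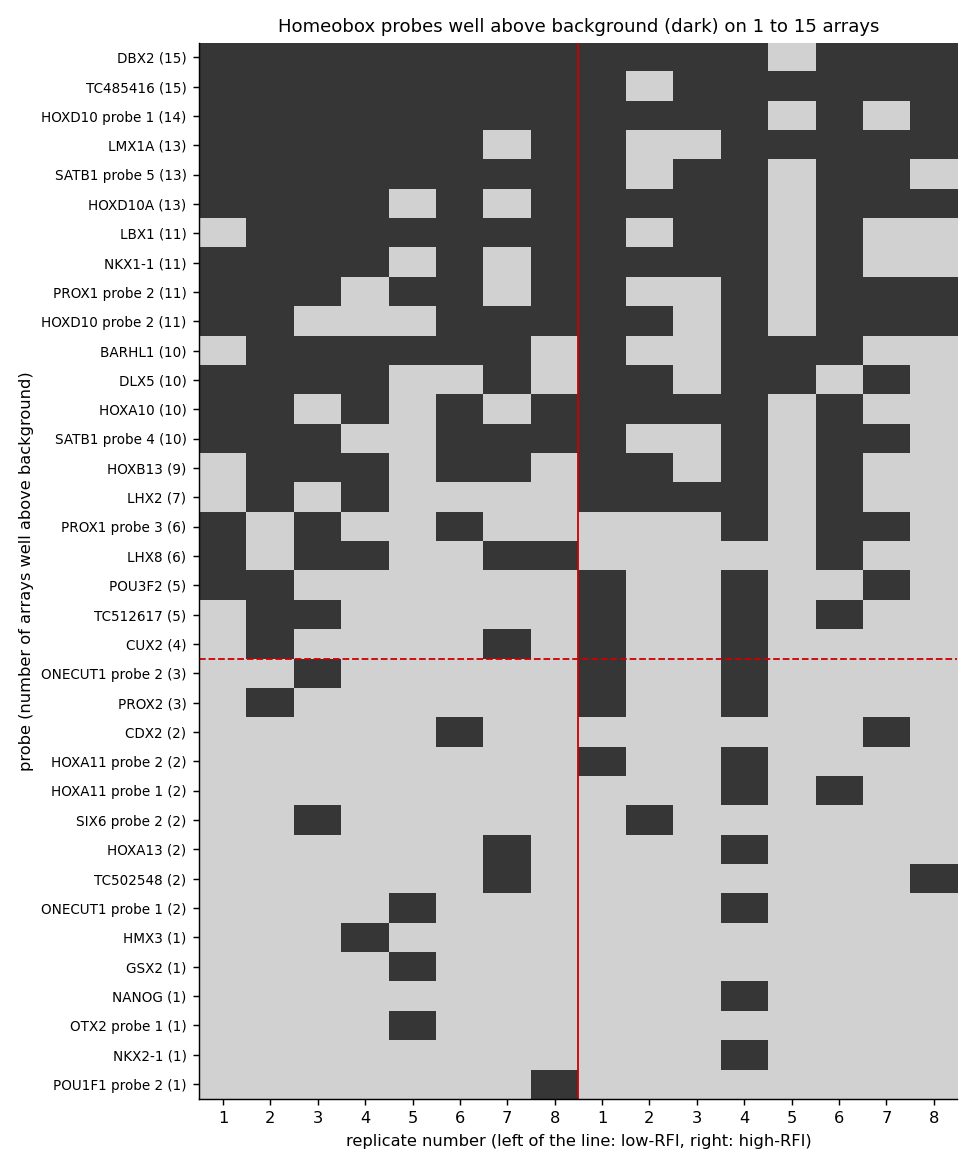
Reported member probes well above background (dark cells) on 1 to 15 arrays, 1 row per probe with its number of arrays and 1 column per pig; the solid line divides the lines of pigs and the dashed line marks the limit of 4 arrays. HOXA10 (10 arrays) and HOXD10A (13) are off together in low-RFI pigs 5 and 7 and high-RFI pig 5, and high-RFI pig 4 holds many of the probes seen on 1 to 3 arrays. Of all spots, the share well above background was highest in high-RFI pig 4 (80.3%) and lowest in high-RFI pig 5 (68.7%).

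Probes of PBX cofactors of HOX proteins were on in every pig. The TALE family, whose PBX and MEIS members bind DNA together with HOX proteins, had all 12 of its probes on in all 16 pigs. Among the 12, TC410929 and TC468179 are named only by resemblance, and none is named MEIS directly. PBX3 probe 1 ran from -2.90 to -1.96. PBX2, named PBX2P1 in the files, ran from 2.86 to 3.62 by probe 1, and TGIF2, a repressor of the same family, from -5.36 to -3.17. TC468179, which resembles human Meis1 over 13%, ran from -3.19 to -1.33. PBXIP1, a protein that binds PBX factors, was also on in all 16 pigs (0.48 to 1.13 by probe 1).

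Several other homeobox factors were likewise on in every pig or in most. PRRX1 and PRRX2, paired-type factors of connective tissue, were on in all pigs, and PRRX1 probe 1 ran from 3.32 to 4.60. MSX1 probe 1 ran from 0.17 to 1.14, MEOX2, a factor of vessels and somites, from -2.52 to -1.48, EMX2 from -1.89 to -0.17 and HHEX, named PHEX in the files, from -1.29 to 0.50. NKX2-8 (0.64 to 2.27) and GSC (-1.18 to 0.14) were on in all 16 pigs, DBX2 and TC485416 in 15, and LMX1A in 13.

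The zinc finger and POU families were on throughout with few exceptions. All 8 zinc finger probes were on in 16 pigs: ADNP, ADNP2, TSHZ1, TSHZ2, ZFHX4 (1.70 to 2.42) and TC489503, which resembles ZEB2 over 6%. HMBOX1 was on in all pigs, as was POU2F1, the widely expressed OCT1 (2.16 to 2.83 by probe 1). Some probes of 1 gene disagreed: PDX1 was on in 16 pigs by one probe and 0 by the other, and SIX6 in 16 and 2. The remaining kept transcripts, all on in 16 pigs, were TC450137, TC479572 and TC500135, which resemble paired-type proteins over 6 to 8% of their length. Of the factors known from the early embryo and the pituitary, POU5F1 was on in 0 pigs, NANOG in 1, and POU1F1 in 0, 1 and 0 by its 3 probes. POU3F4, POU4F2, HMX2, LHX9, NANOGNB, TC427143 and TC461618 were also on in no pig, and CDX2, TC502548, GSX2, HMX3, NKX2-1 and OTX2 in 1 or 2. The limit of 4 pigs parted CUX2, on in 4, from PROX2 (-8.04 to -5.89) and ONECUT1 probe 2 (-8.21 to -6.13), each on in 3.

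Genes known to act with or on HOX genes did not pass in these comparisons. Of 11 HOX cofactor genes listed, 4 were measured, and of 21 Polycomb, 11 trithorax, 16 retinoid and 11 upstream patterning genes, 3, 1, 9 and 1 were. In limma 0 of these passed for line, for replicate set or for their interaction. RING1, a Polycomb ubiquitin ligase, came closest, at 0.31 (SE 0.09, limma adjusted p = 0.0511) between the replicate sets, and the demethylase KDM6A stood at -0.18 (SE 0.10). PSIP1, a trithorax partner, stood at 0.23 (SE 0.08, limma adjusted p = 0.109) and GDF11, a patterning signal for rear HOX genes, at -0.60 (SE 0.24, limma adjusted p = 0.151). In the retinoid list the receptor RARA stood at 0.28 (SE 0.11) between the sets, and in the cofactor list TGIF2 stood at 0.61 (SE 0.27). Between the lines the smallest p values were those of PBX3, above, and of the receptor RARB at 0.61 (SE 0.16).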

How the data were processed

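Each pig's Cy3-labelled RNA (150 ng of total RNA, per the labels) was read on 1 Agilent 1-colour array. The deposited scanner files hold processed intensities, which Feature Extraction 10.7.3.1 had background-subtracted within the array, per the file headers. The deposited value table holds log2 values that equalled log2 of those intensities minus the column median (r = 1) over 28963 spots. The submitters' processing notes also name R 2.10.0.

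All values here are log2 of the processed intensity, from which the 75th percentile of the array was subtracted. Of 43603 probes, 34078 were well above background on at least 4 arrays and 34041 were fitted in limma 3.58.1 (R 4.3.3), two-sided, with Benjamini-Hochberg adjustment over all of them. Values missing because the scanner marked a spot as an outlier made up 0.194%, and these samples dropped out of that probe's fit. Detection used Fisher's exact test, and correlations used exact permutation under 10 pigs and 100000 resamples otherwise. A 95% interval comes from limma. The number of arrays limits the precision. Scripts were tested on simulated data.

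Members and lists were chosen with earlier results of these data known. A gene with several probes is represented by the kept probe of highest mean signal. Named are every kept HOX gene, the members with the smallest p (10 for line, 5 for replicate set, 5 for interaction), members on 4 to 12 arrays, the 3 highest and 3 lowest HOX pairs, and up to 2 genes of each pathway list; some of these are not reported here, though they count in the totals. The relations of HOXA10 had been planned over all pigs and were computed within its clusters instead. RefSeq (Sscrofa11.1) names were found for 63 of 120 member probes, and neither promoters nor proteins were used here. Alternatives covered background correction, scaling, filters, slide, array weights, the value table and each pig left out.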

Additional observations from a re-analysis of the deposited data

Results flagged for a closer look

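Among 80 groups of 8 pigs (40 probes in each line), 5 held a pig far from the other 7, where chance gives about 1 group in 20. HOXA13 was -3.24 in low-RFI pig 7, against -8.62 to -7.89 in the other low-RFI pigs, and -5.69 in high-RFI pig 4, against -8.15 to -7.27. HOXD13 was -6.16 in low-RFI pig 1, against -8.66 to -7.55, although the probe was not well above background in any pig. BARHL1 was -8.07 in low-RFI pig 8, the pig with the most muscle signal, against -5.71 to -4.83. LHX2 was -7.69 in high-RFI pig 5, against -6.15 to -4.92.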

How the results depend on the processing

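Of 1042 values of the 36 named differences under other settings, 968 counted as unchanged. For the 72 values taken within a slide, unchanged meant within 1 SD of the main difference, whatever the direction. For all others it meant the same direction and the same side of the threshold. Of the changed values 29, in 12 of the named differences, had the other direction. Another 23 lost a call, 6 gained one and 16 within-slide values moved by over 1 SD. The named line and interaction differences had a limma adjusted p of 0.725 or higher in the main fit. For them, staying on the same side of the threshold says little. The count of members that passed between the replicate sets (2) was 0 with normexp background correction, without the 3 muscle-rich arrays and without the 3 epithelium-rich arrays, 1 without the filter or with slide as a block, and 6 with array weights. Leaving out 1 pig gave 0 to 7: 7 without low-RFI pig 3, and 0 without high-RFI pig 4 or 8. The count over all 34041 probes moved as well. It was 1527 in the main fit, 4673 without low-RFI pig 3 and 5185 with array weights. Without high-RFI pig 4 or 8 it was 498 or 550, and with normexp it was 10. Without the muscle-rich or epithelium-rich arrays it was 272 or 31. Without low-RFI pig 3 the 7 members included HOXD3 probe 1 (adjusted p = 0.0158) and PDX1 probe 1 (0.0474). The line and interaction counts stayed at 0 in the settings run.

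The median line difference of all probes was 0.0038, and -0.136 with normexp. It turned the line differences of PBX3 probe 1 (-0.021), LHX8 (-0.18), LMX1A (-0.27) and HOXD3 probe 1 (0.069), and the replicate-set differences of NKX1-1 (0.046), HOXB13 (0.067), HOXD10 probe 1 (0.082) and TC512617 (0.047). The line difference of HOXD3 probe 1 was 0.063 without the muscle-rich and 0.13 without the epithelium-rich arrays, and 0.13 with array weights, and that of TC502980 was 0.052 and 0.027 without these arrays. TC450162 differed between the replicate sets by -0.0033 without the muscle-rich arrays. Leaving out 1 pig gave line differences of -0.85 to 0.11 for HOXA10, -0.13 to 0.025 for HOXD10 probe 1, -0.081 to 0.098 for HOXD3 probe 1 and -0.087 to 0.052 for TC502980.

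The relations between clusters moved with the background correction and with the choice of probe. HOXA with HOXB in the 9 pigs was 0.569 with normexp, 0.375 with cluster means and 0.147 with HOXD10A as HOXA, and -0.236 to 0.054 with 1 pig left out. In the 7 pigs it was -0.038 with cluster means and -0.369 with named genes only. HOXA with HOXC in the 9 pigs was -0.162 with cluster means, and in the 7 pigs -0.941 with HOXD10A as HOXA. HOXA with HOXD was -0.246 with normexp in the 9 pigs, and 0.884 with cluster means and -0.718 to 0.303 with 1 pig left out in the 7. The HOXD mean includes HOXD10A, whose accession names HOXA11 and whose r with HOXA10 in the 7 pigs was 0.930. HOXB with HOXC was 0.0018 with named genes only, 0.334 with HOXC4 probe 2 and -0.241 to 0.157 with 1 pig left out. HOXB with HOXD was -0.125 with normexp. HOXC with HOXD was -0.783 with cluster means, 0.249 with HOXC4 probe 2 and -0.027 with named genes only. The cause of these changes was not tested.

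Whether the replicate numbers pair the pigs is not given. In their deviations from the line means, same-numbered pigs of the 2 lines correlated at -0.27 to 0.27. Of 16 arrays, 3 correlated best with their own number. Low correlations cannot exclude a pairing. With the replicate block, 0 members and 0 probes passed between the lines.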

Other observations

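A few HOX probes fell outside the rule for members because neither their name nor their description holds it. A probe whose accession belongs to HOXA4, a front gene of the HOXA cluster, was measured in all 16 pigs. It was highest in low-RFI pigs 5 and 7, at 0.75 and 0.32, the pigs with the highest HOXC4 and the lowest HOXA10 signal, and ran from -0.63 to -0.10 in the others. Its line difference was 0.43 (SE 0.15, limma adjusted p = 0.9998). A probe that resembles gorilla HOXD8 over 36% was lower in replicates 5 to 8 by its log2 difference of -0.45 (SE 0.10, limma adjusted p = 0.0284), and its line difference was -0.04 (SE 0.15). A probe that resembles HOXB3 was well above background in 1 pig.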
